A study of Homo sapiens with 6 samples.

Results

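CD-numbered antigens are surface molecules of leukocytes, named as clusters of differentiation because panels of antibodies recognised them. They include signalling receptors, adhesion molecules, tetraspanins that organise other membrane proteins, and ligands that restrain or activate neighbouring immune cells. Flow cytometry uses them to mark lineage and maturation, but a surface level also depends on translation and transport, which the mRNA values here do not measure.

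The genes described are the 55 protein-coding rows, of 22413 genes listed, whose mouse symbol is Cd followed by a number, an optional letter and an optional digit, with Cd63 and Cd74 left out. They were chosen by symbol and not by level or change. The symbols follow nomenclature and not biology, so that Cd68, mostly an endosomal protein, is among them while many CD antigens with other symbols are not.

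The cells were BaF3-T315I, a murine line stably transfected with BCR-ABL that carries the T315I mutation, an exchange in the kinase domain that blocks imatinib binding. mRNA was sequenced in 3 control samples and in 3 samples exposed for 48 h to 1.1 µM I13, an indole-3-butyric acid derivative that inhibits histone deacetylases. Control and I13 samples alike carry the transgene, no cells without BCR-ABL were sequenced, and the labels give neither a vehicle nor a time for the controls. The time of 48 h for the I13 samples is taken from the study and not from the labels. The labels do not say that replicates came from separate cultures, so p-values measure the spread between these samples, which may be technical.

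The values are FPKM, in which the number of fragments is scaled by the length of the gene and by how many fragments were mapped in that library. Library totals recovered from them lay between 16762119 and 17722950 fragments. The parental BaF3 line is usually described as pro-B and dependent on interleukin 3. Of 8 pro-B markers 5 had a row. Vpreb1, Igll1, Ebf1 and Pax5 stayed at or under 0.107 FPKM in every sample, and only Ptprc (CD45) was at a clear level. Of the receptor chains for interleukin 3, Csf2rb had a mean of 329 FPKM in the controls and Il3ra one of 11.4 FPKM. The defining transcripts of early B cells were thus near 0, although some B cell CD antigens described here were not.

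The first comparison asked which CD antigen mRNAs these cells hold at all. Of the 55 genes, 26 had a mean of at least 0.5 FPKM over the 6 samples and were tested for a change. Among these 26, 15 had a mean of at least 10 FPKM, 9 lay from 1 to 10 FPKM and 2, Cd101 and Cd46, lay under 1 FPKM. Their median mean level was 13.4 FPKM, against 7.48 FPKM for all 12163 genes tested. Levels between genes are compared on the FPKM scale, which allows for gene length.

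The leukocyte tetraspanin Cd53 stood far above the other CD antigens. Control replicates 1, 2 and 3 gave 273, 126 and 287 FPKM, whereas I13 replicates 1, 2 and 3 gave 324, 195 and 607 FPKM. Cd53 held between 30.0% and 51.7% of the summed FPKM of the 55 genes in each sample. The next levels belonged to Cd48, a lipid-anchored ligand of SLAM-type receptors, with 42.8 ± 8.46 FPKM (SD, n = 3) in the controls, and to Cd47, the signal that restrains phagocytes through SIRP alpha, with 36.1 ± 6.75 FPKM (SD, n = 3). These neighbours in the order lie within each other's spread.

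**Figure D1:**
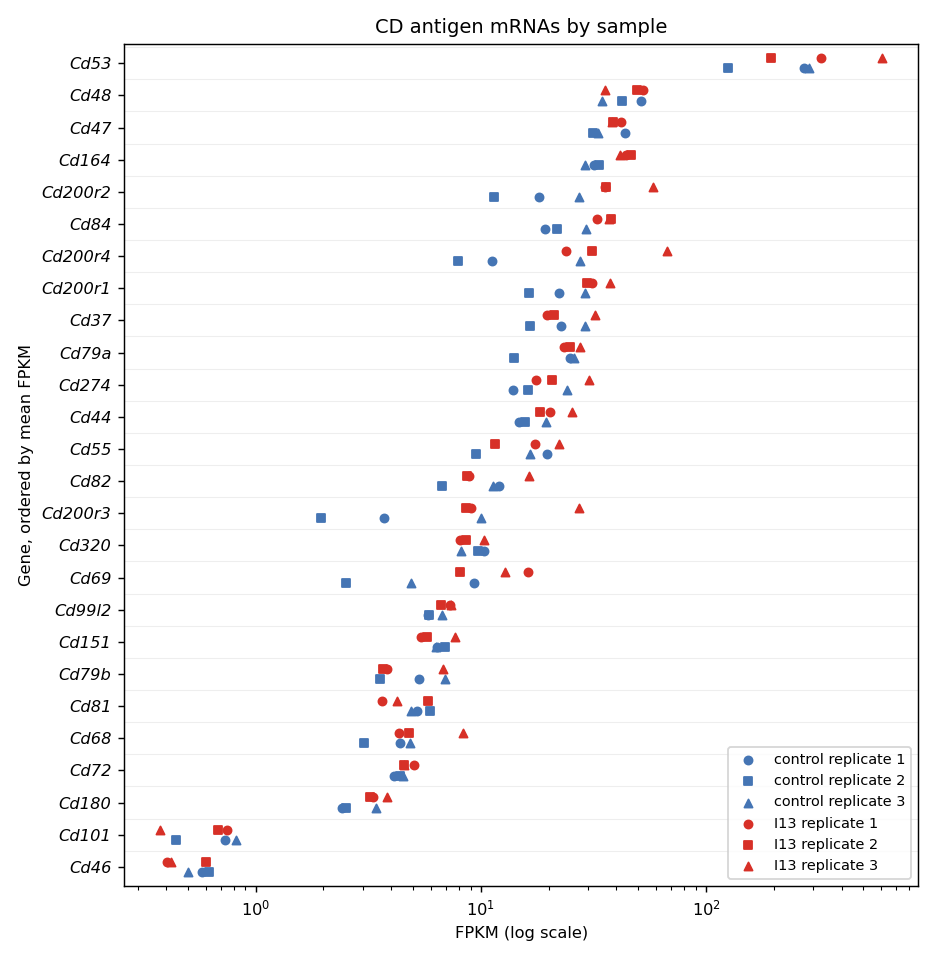
FPKM of the 26 CD antigen mRNAs tested, on a log axis, with each gene on a line and each of the 6 samples as a point (blue for control, red for I13, with a marker shape for each replicate number). Cd53 lies far to the right of the others, Cd200r3, Cd200r4 and Cd69 spread widely within a group, and Cd164 and Cd72 spread little.

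The second comparison asked which of these mRNAs differed after I13. Of the 26 genes, 20 (76.9%) had a positive log2 fold change, against 49.2% of all genes tested. Their median log2 fold change was 0.24, against -0.005 over all genes tested, and without the 4 receptors of the CD200 family the median of the other 22 genes was 0.17. The median of the 26 genes was 0.157 without control replicate 2. The SD of the medians between samples of a group was 0.271 in the group where it was larger. In the fit by limma without a term for the replicate number, 0 of the 26 genes passed an adjusted p of 0.05, beside 0.0411% of all genes tested. At an unadjusted p below 0.05, 7 of the 26 genes were higher after I13, beside 7.79% of all genes, and 0 were lower, beside 10.8%. Without control replicate 2, or without I13 replicate 3, 3 genes were higher at that limit instead of 7. Of all genes tested, 1924 and 2482 were under it in either direction in those fits, against 2266 with all samples. limma's voom on the recovered fragments, without the block, also passed 0 of the 26 genes.

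Samples sharing a replicate number deviated together from their group means, so the numbers were taken to pair them. This pairing was read from the same values that the block was then fitted to, and the labels do not say what a number marks. With the replicate number as a block, limma called 5 of the 26 genes higher at an adjusted p below 0.05 and a log2 fold change of at least 0.58, beside 1.36% of all genes tested. None was called lower, beside 0.526%, and at an unadjusted p below 0.05 in this fit 12 of the 26 genes were higher, beside 13.2% of all genes, and 0 were lower, beside 14.8%. The 5 genes were Cd200r2, Cd200r3, Cd200r4, Cd69 and Cd84. At the adjusted p alone 6 genes were higher, Cd164 being the sixth, beside 1.75% of all genes tested, and 0 were lower, beside 1.24%. These calls rest on 3 pairs. Without the pair of replicate 1 the blocked fit called 4 of the CD genes higher, beside 0.641% of all genes tested. Without that of replicate 2 or 3 it called 0 of the CD genes, beside 0% of all genes tested. In each of those fits 10 of the CD genes were higher at an unadjusted p below 0.05. Of all 12163 genes tested, 1638 without pair 2 and 3160 without pair 3 were under that limit in either direction. With voom on the recovered fragments and the block, 10 of the CD genes passed an adjusted p of 0.05, all higher, beside 6.61% of all genes tested, and 6 were called higher, beside 3.08%. The 4 genes added to the 6 above were Cd53, Cd200r1, Cd274 and Cd44, of which Cd53 was called.

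**Figure D2:**
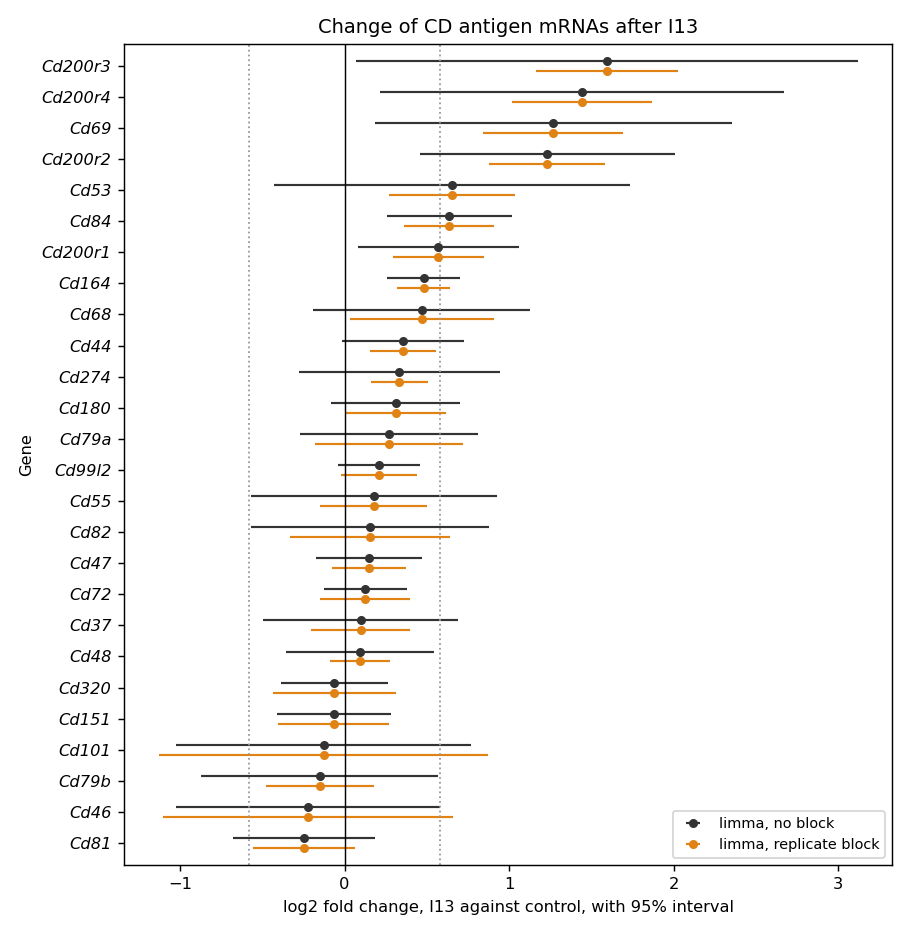
Log2 fold change of the 26 CD antigen mRNAs after I13 against control, with 95% intervals from limma without the block (black) and with the replicate block (orange), and dotted lines at the fold change threshold of 0.58. Cd200r3, Cd200r4, Cd69 and Cd200r2 have the largest values, between 1.23 and 1.59, and the block narrows their intervals.

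Receptors of the CD200 family were 3 of the 5 genes called with the block. CD200 is a membrane ligand that quiets myeloid cells, and Cd200r1 encodes its inhibitory receptor. Cd200r2, Cd200r3 and Cd200r4 encode related receptors with short tails that pair with an activating adaptor. All 4 were detected in every sample and were higher after I13 in each of the 3 same-numbered pairs.

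Cd200r4 stood at 11.2, 7.96 and 27.5 FPKM in the controls, in the order of their numbers, whereas I13 replicates 1, 2 and 3 gave 23.9, 31.2 and 67.3 FPKM. The groups overlap, since control replicate 3 exceeded I13 replicate 1, while each I13 sample exceeded its own control. On the log2 scale the difference was 1.44 ± 0.52 (SE), and limma gave an adjusted p of 0.211. With the replicate block the adjusted p was 0.0384 and the 95% interval ran from 1.02 to 1.87.

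Cd200r3, which in normal tissue marks basophils and mast cells, had the highest log2 fold change of the 26 genes with all samples in the fit, but not without control replicate 1 or I13 replicate 3, where Cd69 was higher, or without control replicate 2, where Cd200r4 was. Its values were 3.73, 1.94 and 10 FPKM in the controls and 9.02, 8.61 and 27.4 FPKM after I13, in the order of the replicates. Again replicate 3 was highest in both groups and control replicate 3 lay above I13 replicates 1 and 2. On the log2 scale the difference was 1.59 ± 0.65 (SE), with an adjusted p of 0.252 from limma and of 0.0354 with the replicate block. It was 1.05 without I13 replicate 3 in the fit without the block.

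Cd200r2 was listed at 18.1, 11.4 and 27.4 FPKM in the controls and at 35.6, 35.9 and 58.1 FPKM after I13. Here the groups did not overlap. The log2 difference was 1.23 ± 0.33 (SE), with an adjusted p of 0.137 from limma and of 0.0361 once the replicate block was added.

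The inhibitory receptor Cd200r1 differed less, with 22.2, 16.4 and 29.1 FPKM in the controls and 31.2, 29.7 and 37.6 FPKM after I13. The groups did not overlap, and the log2 difference of 0.57 ± 0.21 (SE) had an adjusted p of 0.213 from limma and of 0.0577 with the replicate block. The difference was 0.361 without control replicate 2. In voom with the block the adjusted p was 0.0142, at a log2 difference of 0.56, under the fold change threshold. Whether the activating receptors differed from Cd200r1 in their change was not tested. Summed over the 4 receptors, the level lay between 37.7 and 94.0 FPKM in the controls and between 99.7 and 190 FPKM after I13. These paralogues are close in sequence, and how fragments fitting several of them were counted is not given in the sources used here, so that the share of each is uncertain.

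**Figure D3:**
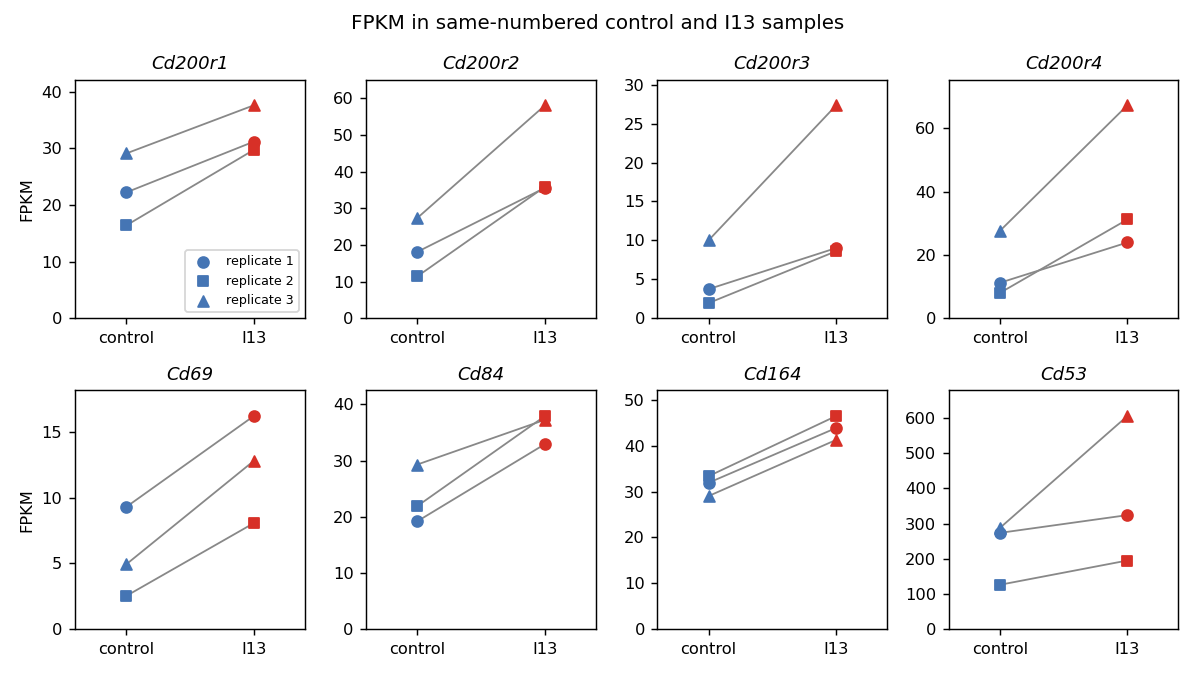
FPKM of 8 CD antigen mRNAs in control (blue) and I13 samples (red), with same-numbered samples joined by a line, marker shapes for replicates 1, 2 and 3, and linear axes from 0. The I13 end of every line is the higher one, also for Cd53, Cd164 and Cd200r1, which limma on log2 FPKM did not call, and replicate 3 is highest in both groups for the 4 Cd200r genes and for Cd53.

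The summed level of macrophage markers and the erythroid transcription factor Klf1 also lay higher after I13, without overlap between the groups. Of 5 macrophage and monocyte markers 4 had a row, and their summed level lay between 19.9 and 41.6 FPKM in the controls and between 48.3 and 78.8 FPKM after I13. Adgre1 gave most of it, with a mean of 32.0 FPKM in the controls and 64.3 FPKM after I13, while 2 of the 4 markers, Mrc1 among them, stayed at or under 0.0702 FPKM. All 5 mast cell and basophil markers had a row. Their summed level lay between 1.48 and 10.6 FPKM in the controls and between 3.24 and 6.52 FPKM after I13, with Ms4a2, Fcer1a and Mcpt8 at or under 0.264 FPKM in every sample. Klf1 was listed at 6.34, 8.38 and 10.4 FPKM in the controls and at 14.4, 16.0 and 13.5 FPKM after I13, with an adjusted p of 0.113 from limma and of 0.059 with the replicate block. The part of these markers in the higher CD antigens was not tested. In bulk samples a larger share of cells of a type and more RNA per cell cannot be told apart.

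Cd69, the early activation antigen of lymphocytes, was the only tested gene of the 10 T and NK cell receptors outside the T cell receptor complex. It was listed at 9.29, 2.51 and 4.92 FPKM in the controls and at 16.2, 8.07 and 12.8 FPKM after I13. The groups overlap because control replicate 1 was above I13 replicate 2, but in each pair the I13 sample was higher. The log2 difference was 1.27 ± 0.46 (SE), for which limma's adjusted p was 0.213 without the replicate block and 0.0384 with it. Without control replicate 2 the difference was 0.80.

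Among adhesion molecules and sialomucins, 3 of 3 tested genes had a positive log2 fold change, and Cd84 was called with the block. Cd84, a receptor of the SLAM family that binds itself on other cells, was listed at 19.2, 21.9 and 29.3 FPKM in the controls and at 32.9, 37.9 and 37.3 FPKM after I13, without overlap. The log2 difference was 0.64 ± 0.16 (SE), for which limma's adjusted p was 0.126, or 0.0497 in the fit with the replicate block.

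Cd164, a sialomucin of haematopoietic progenitors, was the steadiest of these genes. It was listed at 31.9, 33.4 and 29.0 FPKM in the controls and at 43.9, 46.5 and 41.3 FPKM after I13. The log2 difference was 0.48 ± 0.09 (SE), the smallest unadjusted p of the 26 genes belonged to it (0.00124), and the adjusted p was 0.109 from limma and 0.0384 with the replicate block. The differences within pairs, 0.46, 0.48 and 0.51 on the log2 scale, were nearly equal. Cd44, the hyaluronan receptor, was listed at 14.8, 15.6 and 19.4 FPKM in the controls and at 20.3, 18.3 and 25.5 FPKM after I13, with an adjusted p of 0.283 from limma and of 0.071 with the replicate block.

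Of the 6 tetraspanins, 5 were tested and 0 passed an adjusted p of 0.05 in limma on log2 FPKM with or without the block. For Cd53 the log2 difference was 0.65 ± 0.46 (SE), and limma's adjusted p was 0.481 without the replicate block and 0.0769 with it. In voom with the block it was called, with an adjusted p of 0.0177. In the fit without the block the difference for Cd53 turned on samples of replicates 2 and 3. It was 0.23 without I13 replicate 3, 0.27 without control replicate 2 and 1.05 without I13 replicate 2. The other leukocyte tetraspanin, Cd37, was listed at 22.7, 16.5 and 28.9 FPKM in the controls and at 19.6, 21.1 and 32.2 FPKM after I13, a log2 fold change of 0.10 with a 95% interval from -0.49 to 0.69. Cd81, a partner of the B cell coreceptor, had a log2 fold change of -0.25 with a 95% interval from -0.68 to 0.18, and this ran from -0.43 without I13 replicate 2 to -0.10 without I13 replicate 1. It was listed at 5.19, 5.95 and 4.91 FPKM in the controls and at 3.65, 5.82 and 4.23 FPKM after I13. Cd151, which binds laminin receptors of the integrin family, stood at 6.53 ± 0.334 FPKM (SD, n = 3) in the controls and at 6.30 ± 1.22 FPKM (SD, n = 3) after I13.

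Of the 5 B cell genes, Cd79a, Cd79b, Cd72 and Cd180 were tested and 0 passed an adjusted p of 0.05 with or without the block. Cd79a and Cd79b encode the signalling chains of the B cell receptor. Cd79a was listed at 24.8, 14.1 and 25.9 FPKM in the controls and at 23.3, 24.9 and 27.5 FPKM after I13. Control replicate 2 was low and the other 5 samples were close, so that the log2 fold change of 0.27 became -0.01 without control replicate 2. Cd79b, at 5.32, 3.57 and 6.94 FPKM in the controls, stood at 3.85, 3.67 and 6.79 FPKM after I13, a log2 fold change of -0.15 with a 95% interval from -0.87 to 0.57. The inhibitory coreceptor Cd72 stood at 4.34 ± 0.214 FPKM (SD, n = 3) in the controls and at 4.74 ± 0.29 FPKM (SD, n = 3) after I13. Its groups did not overlap, and its log2 fold change was 0.12 with an adjusted p of 0.566 from limma. Cd180 was listed at 2.43, 2.52 and 3.42 FPKM in the controls and at 3.32, 3.22 and 3.81 FPKM after I13. Its log2 fold change was 0.31, with an adjusted p of 0.362 from limma and of 0.172 with the replicate block. In limma with the block its unadjusted p was 0.0471.

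Of the remaining tested genes 0 passed an adjusted p of 0.05 in limma with or without the block, although Cd274 and Cd68 were among the 12 genes higher at an unadjusted p below 0.05 with it. Cd48 was listed at 51.5, 42.2 and 34.6 FPKM in the controls and at 52.3, 49.2 and 35.6 FPKM after I13, so that each I13 sample lay close to its own control. Cd47 was listed at 43.8, 31.4 and 33.1 FPKM in the controls and at 42.1, 38.6 and 38.2 FPKM after I13, a log2 fold change of 0.15 with a 95% interval from -0.17 to 0.47. The immune checkpoint ligand Cd274 (PD-L1) was listed at 13.9, 16.2 and 24.2 FPKM in the controls and at 17.6, 20.6 and 30.4 FPKM after I13. Its differences within pairs were 0.33, 0.34 and 0.33 on the log2 scale, and 79.9% of its sum of squares lay between the replicate numbers. Its adjusted p was 0.523 from limma and 0.0638 with the replicate block. Cd320, the receptor for transcobalamin, had a log2 fold change of -0.06 with a 95% interval from -0.39 to 0.27. The complement regulator Cd55 had one of 0.18 and the endosomal protein Cd68 one of 0.47, with 95% intervals from -0.57 to 0.92 and from -0.19 to 1.13.

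**Figure D4:**
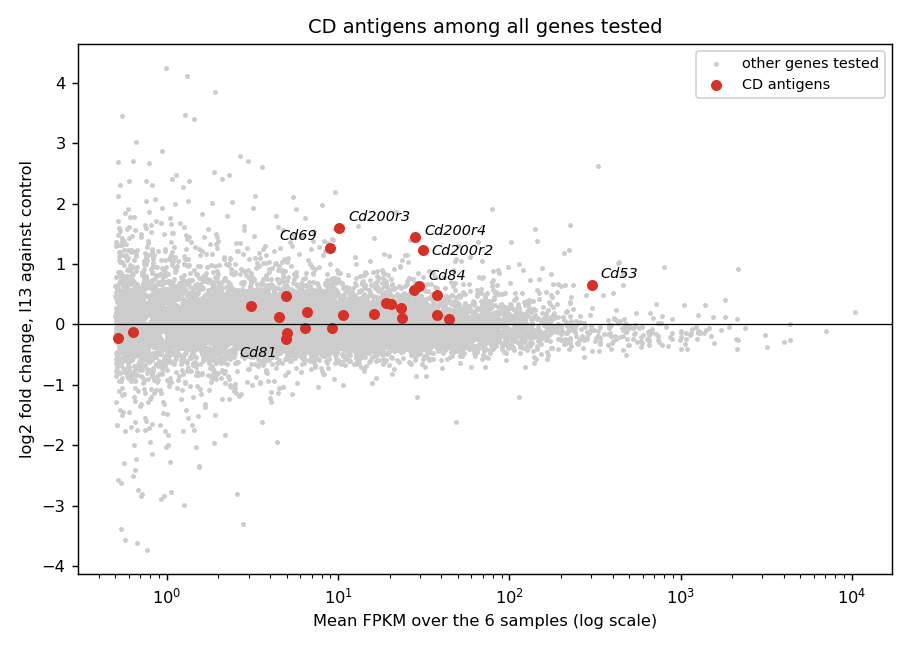
Log2 fold change after I13 against mean FPKM on a log axis for the 12163 genes tested (grey) and the 26 CD antigens among them (red). Most red points lie above 0, and the lowest, Cd81, is at -0.25.

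The third comparison asked how the samples of a group differed among themselves. In 13 of the 26 genes replicate 3 was highest in both groups, beside 16% of all genes tested, and in 14 of the 26 genes control replicate 2 was the lowest control, beside 29.1%. The median share of a gene's sum of squares between replicate numbers was 47.9% for the CD antigens and 42.2% for all genes tested, and the share between control and I13 was 27.4% and 25.9%. Cd48, Cd79b and Cd55 varied mostly with the replicate number, with 92.7%, 88.8% and 86.4% of their sum of squares. Cd164 varied mostly with the condition, with 90.7%. In 14 of the 26 genes the I13 sample was higher in all 3 pairs, beside 24.1% of all genes tested, and in 2, Cd46 and Cd81, it was lower in all 3, beside 27.3%. The values of the groups did not overlap in 5 of the 26 genes, with I13 higher in each (Cd164, Cd200r1, Cd200r2, Cd72 and Cd84), beside 9.82% of all genes tested, and in 0 with I13 lower, beside 15.4%.

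The other 29 CD genes lay under a mean of 0.5 FPKM and were not tested. Of these, 16 had fewer than 10 fragments over all 6 samples and 19 were at 0 in at least 1 sample. The 6 chains and coreceptors of the T cell receptor were all in this class. Cd3e rested on 1 fragment over the 3 controls and on 5 over the I13 samples, Cd3g on 0 and 3, Cd3d on 9 and 14, and Cd247 on 32 and 22. Cd22, a B cell inhibitory receptor, had 0 fragments in the controls and 7 after I13. Cd28, the costimulatory receptor of T cells, had 1 fragment in all samples.

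The highest of the low genes were Cd27, Cd276, Cd160 and Cd163. Cd27, a receptor of the TNF receptor family, lay just under the limit at a mean of 0.492 FPKM, with 24, 20 and 24 fragments in the controls and 18, 21 and 13 after I13. Cd163, the haemoglobin scavenger receptor of macrophages, had 17, 27 and 46 fragments in the controls and 50, 52 and 33 after I13. Cd244, a receptor for Cd48, had 2, 12 and 1 fragments in the controls and 15, 26 and 9 after I13. For all 3 of these genes the fragments of the groups overlap.

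**Figure D5:**
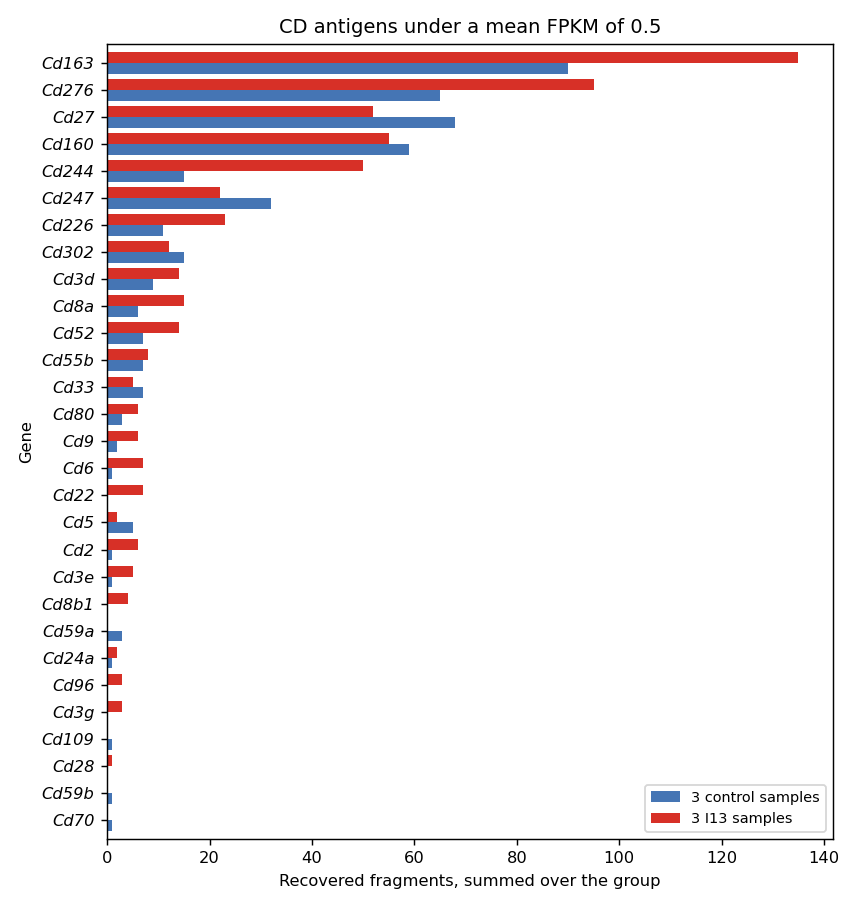
Fragments recovered for the 29 CD genes with a mean under 0.5 FPKM, summed over the 3 control samples (blue) and over the 3 I13 samples (red). Cd163 has 90 and 135 fragments, and the lowest genes have 1 fragment in all.

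A hand-written list of 30 further antigens with a CD number but another symbol was set beside them, of which 26 had a row and 18 were tested. At an unadjusted p below 0.05 from limma 6 were higher, beside 7.79% of all genes tested, and 1 was lower, beside 10.8%. Without the block 0 passed an adjusted p of 0.05, beside 0.0411% of all genes tested. With the block 2 were called higher, beside 1.36%. Those 2 were Fas (CD95), the death receptor, which went from 3.49 ± 0.937 to 6.33 ± 0.439 FPKM (SD, n = 3 each), and Csf2rb (CD131), the shared chain of the receptors for interleukin 3, interleukin 5 and GM-CSF, which went from 329 ± 118 to 588 ± 218 FPKM (SD, n = 3 each). For Fas limma's adjusted p was 0.116 without the replicate block and 0.0472 with it, and the groups did not overlap. For Csf2rb limma's adjusted p was 0.220 without the block and 0.0313 with it. Its groups overlap, since control replicate 3 at 463 FPKM exceeded I13 replicate 1 at 448 FPKM. The lower gene was Icam2 (CD102), an integrin ligand, with 17.3 ± 1.36 and 12.9 ± 2.20 FPKM (SD, n = 3 each). The myeloid antigen Anpep (CD13) was listed under 0.5 FPKM on average in both groups, at 0.0273 and 0.138 FPKM, and was not tested.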

How the data were processed

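Per the labels and the methods of the study, total RNA was extracted with Trizol and made into stranded mRNA libraries. The authors deposited FPKM values, scaled to gene length and mapped fragments, 1 column per sample with no pooling. The submitters' processing notes name Trimmomatic, HISAT2, Cufflinks and HTSeq without versions, and hg38, whereas the gene identifiers are those of mouse, as is the line; the mouse build and annotation are not given in the sources used here. No mouse sequence was used and no coordinates are given. Of the per-sample columns, 0 lacked a sample.

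The code was first tested on simulated data. Of 195 genes simulated with a log2 fold change of 1 in size, limma called 53.3% without the block and 30.8% with it. That simulation held no replicate effect, so these shares need not hold for the data. Whole fragments and lengths were recovered from the FPKM values for 22412 of 22413 genes, with each gene's fragments taken as the smallest whole numbers that give its values. log2(FPKM + 0.1) was fitted with limma 3.58.1 in R 4.3.3 (eBayes with a trend) over the 12163 genes with a mean of at least 0.5 FPKM, with two-sided p-values corrected over all of them after Benjamini and Hochberg. Calls required a corrected p under 0.05 together with a log2 fold change of 0.58 or more in size, which are the limits in the study's methods. Fold changes on this scale understate those of low genes.

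The correlations of deviations from the group means were 0.15, 0.30 and 0.22 for samples sharing the number 1, 2 or 3, and -0.26 to 0.05 otherwise. The numbers were therefore taken to pair the samples. The labels do not say what a number marks.

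The genes named with values are the 10 with the highest level, those called in either fit, those at an unadjusted p below 0.05, and the 5 highest and 5 lowest log2 fold changes at a mean of at least 1 FPKM, where only 4 were negative. Cd274, Cd44, Cd72, Cd180, Cd55, Cd68 and the low genes were added after their values were seen. The genes, the lists and the tests were chosen with earlier results of these data known. Alternatives were other pseudocounts, filters and scaling, the block, voom and leaving out each sample; leaving out pairs in the blocked fit was added once the data had been seen. The summed level of the erythroid marker list is not reported here. The plots come from matplotlib 3.10.9.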

Additional observations from a re-analysis of the deposited data

How the results depend on the processing

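The replicate block moved the calls most. With it, 6 CD antigens passed an adjusted p of 0.05, 5 were called and 12 were higher at an unadjusted p below 0.05, against 0, 0 and 7 without it. With voom on the recovered fragments and the replicate block these were 10, 6 and 12. In that fit 1507 of 12162 genes passed an adjusted p of 0.05 and 503 were called. In limma with the block these were 364 and 230 of 12163. At an unadjusted p below 0.05 in either direction there were 3743 genes in that voom fit and 3409 in limma with the block. The blocked fits that left out a pair were chosen after seeing the data. Without the pair of replicate 1 the counts of CD antigens were 4, 4 and 15. In that fit 2665 of 12163 genes were under an unadjusted p of 0.05 in either direction. Without either of the other pairs 0 of all 12163 genes passed an adjusted p. Of the 16 genes named, the block brought Cd164, Cd200r2, Cd200r3, Cd200r4, Cd69 and Cd84 past an adjusted p of 0.05 and changed no other call. In voom with the block, Cd53 (adjusted p of 0.0177) and Cd200r1 (0.0142) passed as well. Leaving out each sample in turn, in the fit without the block, gave 3 to 9 genes higher and 0 to 1 lower at an unadjusted p below 0.05, the 3 without control replicate 2 or I13 replicate 3, and 0 past an adjusted p. Of all 12163 genes tested, 1478 to 2482 were under the unadjusted limit in either direction and 0 passed an adjusted p. The log2 fold changes that turned sign under these fits were small, and ran from -0.048 to 0.265 for Cd48, from -0.122 to 0.289 for Cd37, from -0.011 to 0.428 for Cd79a, from -0.429 to 0.069 for Cd79b, from -0.216 to 0.032 for Cd151 and from -0.166 to 0.015 for Cd320. In the blocked fits, sign turned without pair 1 for Cd79b (0.004), Cd151 (0.017) and Cd320 (0.087), and without pair 2 for Cd37 (-0.029), Cd79a (-0.002) and Cd151 (0.027). The causes were not tested. With other pseudocounts, filters or median-ratio scaling, and with voom without the block, 0 CD antigens were called and no named gene turned sign. Of all genes fitted, 2 to 8 were called in those settings. The depth limits the 16 CD genes with under 10 fragments in all.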
